A study of Poecilia reticulata with 6 samples.

Results

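The genes examined here are those for the synthesis of myo-inositol and the uptake of organic osmolytes in the intestine of the guppy (Poecilia reticulata). They were taken by symbol, as every gene of the table whose name begins with isyna1, impa1, impa2, miox, slc5a3 or slc6a6. Of the 10389 genes in the table, 2 matched, namely ISYNA1 (ENSPREG00000010538) and slc6a6b (ENSPREG00000022491). The other 4 symbols gave no row, so the inositol monophosphatases, the inositol oxygenase miox and the inositol carrier slc5a3 were not analysed here. The group was also chosen by measured values, namely the much higher level of ISYNA1 at 35‰ in these same libraries. Its values in the comparisons with 35‰ are therefore given as a description without a test, whereas its comparison of 18‰ with 0‰ and all comparisons of slc6a6b were tested.

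RNA from the intestine of adult wild-type guppies was sequenced in 6 libraries, with 2 each at 0‰, 18‰ and 35‰ salinity. No mutant or transgene is named for any group, and the tanks were salted in steps up to 35‰, so that salinity and the time spent under rising salinity cannot be told apart. The sample labels write the salinities in percent, and the unit of the study design is used here. The number of fish behind a library is not stated, so p-values measure only the spread between these libraries, which may be technical.

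Animal cells that face concentrated fluids balance their volume with small organic solutes, or osmolytes, that do not disturb proteins as salt ions do. The main ones in vertebrates are myo-inositol, taurine, betaine and sorbitol, which are made in the cell, carried in from outside or both. ISYNA1 encodes inositol-3-phosphate synthase, which turns glucose 6-phosphate into inositol 3-phosphate and sets the pace of new inositol synthesis. An inositol monophosphatase then releases free myo-inositol. In tilapia, another euryhaline fish, both steps are known to be induced by high salinity. The slc6a6b gene encodes a taurine carrier, which brings taurine into the cell together with sodium and chloride. Taurine itself is made from cysteine and is also used to conjugate bile acids.

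ISYNA1 was expressed at a low level at 0‰ and 18‰ and at a high level at 35‰. Levels are given as TPM, a transcript abundance that the authors scaled for transcript length and library size, so that genes can be set side by side. For ISYNA1 the TPM of replicate 1 and replicate 2 was 16.55 and 4.73 at 0‰, 3.34 and 8.04 at 18‰ and, in the 35‰ libraries, 224.31 and 153.17, and values of other genes follow the same replicate order. Both 35‰ libraries lay far above all others, while the 0‰ and 18‰ libraries overlapped. The mean TPM was 10.6 ± 8.36 (SD, n = 2) at 0‰, 5.69 ± 3.32 at 18‰ and 189 ± 50.3 at 35‰. The salinities thus ranked 35‰, 0‰ and 18‰ by mean, and the last 2 did not differ beyond the spread of their libraries.

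**Figure D1:**
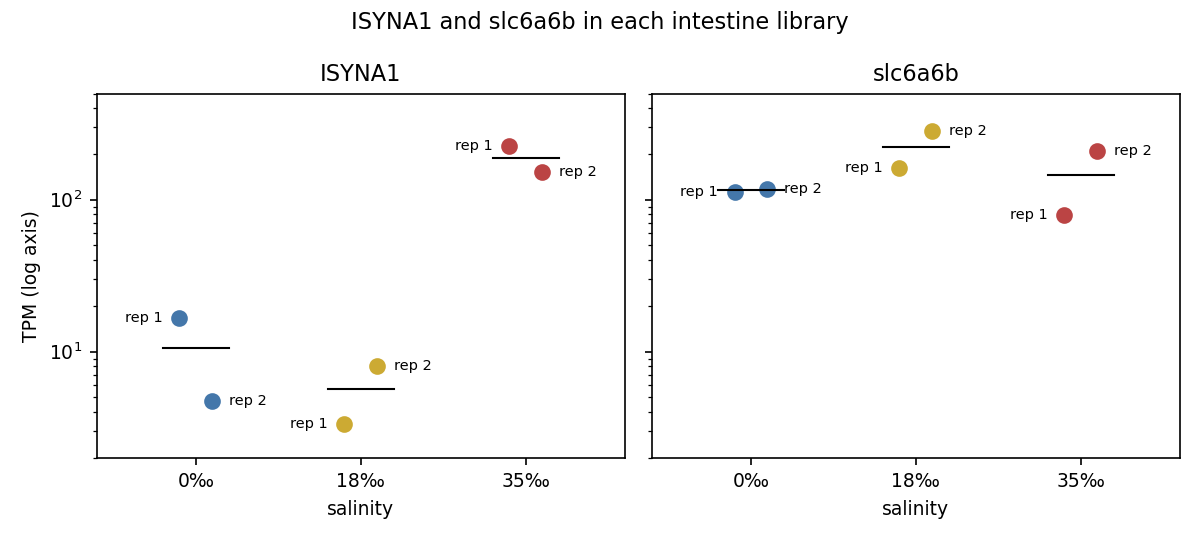
TPM of ISYNA1 (left) and slc6a6b (right) in each intestine library, on a log axis, against salinity. Each point is 1 library with its replicate number and each black line is the mean of 2 libraries. ISYNA1 stood at 153.17 and 224.31 at 35‰ and at no more than 16.55 elsewhere, whereas slc6a6b stayed between 78.9 and 284.17 with overlapping libraries at 35‰.

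The mean TPM of ISYNA1 at 35‰ was 17.7 times that at 0‰ and 33.2 times that at 18‰. Between single libraries, the ratio of 35‰ to 0‰ ran from 9.26 to 47.4, and that of 35‰ to 18‰ from 19.1 to 67.2. The spread was widest at 0‰, where replicate 1 was 3.5 times replicate 2, and narrowest at 35‰, where the libraries differed by 1.46 times. The size of the ratio depends on the libraries it is taken against. ISYNA1 was chosen for its rise, so these ratios are a description without a test.

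On the log2(TPM + 1) scale, the fitted change of ISYNA1 was 4.22 in 35‰ versus 0‰ (standard error, SE, 0.57) and 4.90 in 35‰ versus 18‰ (SE 0.57). Among the 7897 genes tested, which reached 1 TPM in 2 libraries or more, these were the rank 3 and rank 2 largest increases, where the median over all genes was −0.01 and −0.07. These ranks describe a gene picked for its rise and support nothing further. When 0‰ replicate 1 was left out, the change against 0‰ was 5.02, and when 0‰ replicate 2 was left out it was 3.41. Against 18‰ the change lay between 4.37 without 18‰ replicate 1 and 5.42 without 18‰ replicate 2.

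By the ratio of the lowest 35‰ library to the highest of the other 4 libraries, ISYNA1 stood at rank 5 with 9.26, where the median gene had 0.647. Both 35‰ libraries were above all other libraries for 10.6% of the genes tested. Within the library, ISYNA1 was a gene of middling rank at 0‰ and 18‰ and an abundant one at 35‰. Counted from the most abundant gene, its rank at 0‰ and 18‰ ran from 2401 of 10389 in 0‰ replicate 1 to 5918 in 18‰ replicate 1. At 35‰ it ranked 239 in replicate 1 and 344 in replicate 2. The synthase was then expressed at a level similar to that of the taurine carrier, which ranked between 204 and 591 in the 6 libraries.

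In 18‰ versus 0‰, the comparison that played no part in its choice, ISYNA1 did not change detectably. Its log2 fold change was −0.68 (SE 0.57, 95% interval −2.04 to 0.68, limma, p adjusted by Benjamini-Hochberg over 7897 genes = 0.978). In this comparison limma called 0.0127% of all genes at an adjusted p under 0.05 and a fold change above 1.5, and neither ISYNA1 nor slc6a6b was among them. The unadjusted p of the 2 genes in the same limma fit was 0.275 and 0.104, while 5.93% of all genes had one under 0.05. The direction for ISYNA1 rested on 0‰ replicate 1, and without it the log2 fold change was 0.13. The interval of the full fit is wide, so a change of moderate size at 18‰ was not detectable here.

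The taurine carrier gene slc6a6b was abundant at every salinity and did not pass the test in any comparison. Its TPM was 112.81 and 118.2 at 0‰, 161.92 and 284.17 at 18‰ and, in the 35‰ libraries, 78.9 and 209.85. Both 18‰ libraries were above both 0‰ libraries, whereas the 35‰ libraries lay on either side of the 0‰ libraries and 1 of them within the 18‰ range. The mean TPM was 116 ± 3.81 (SD, n = 2) at 0‰, 223 ± 86.4 at 18‰ and 144 ± 92.6 at 35‰. By mean the order was 18‰, 35‰ and 0‰, but neither neighbouring pair in that order was separated beyond the spread of its libraries. At 0‰ the libraries differed by only 1.05 times, and at 35‰ by 2.66 times.

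The mean of slc6a6b at 18‰ was 1.93 times that at 0‰, and the 4 library pairs gave ratios from 1.37 to 2.52. A separation of this kind was common, since 24.7% of the genes tested had both 18‰ values above both 0‰ values. The log2 fold change was 0.89 (SE 0.48, 95% interval −0.24 to 2.01, adjusted p = 0.941 from limma), which did not pass the test. In 35‰ versus 0‰ it was 0.16 (SE 0.48, 95% interval −0.97 to 1.28, adjusted p = 0.921 from limma), and 0.19% of all genes were called in that comparison. This value had no stable direction. It was −0.54 without 35‰ replicate 2 and −0.0285 when the TPM of each library was rescaled to the same total over the table. That rescaling moved the median over all genes in 35‰ versus 0‰ from −0.01 to −0.18. In 35‰ versus 18‰ the log2 fold change was −0.73 (SE 0.48, 95% interval −1.86 to 0.39, adjusted p = 0.558 from limma), against 0.317% of genes called (0.038% higher and 0.279% lower). Without 35‰ replicate 1 it was −0.03, and without 35‰ replicate 2 it was −1.43.

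**Figure D2:**
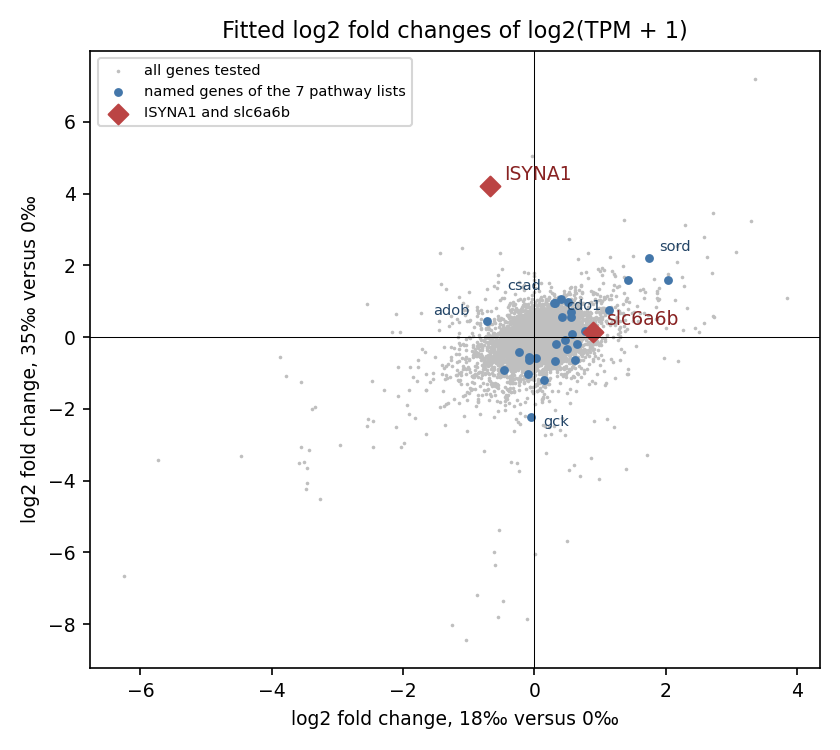
Log2 fold change of log2(TPM + 1) in 18‰ versus 0‰ (horizontal) and in 35‰ versus 0‰ (vertical), which share the 0‰ libraries. Grey points are the 7897 genes tested, blue points the named genes of the 7 pathway lists and red diamonds ISYNA1 (−0.68, 4.22) and slc6a6b (0.89, 0.16).

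The libraries were checked for RNA of other organs, because ISYNA1 and taurine carriers are also active outside the gut. The 7 enterocyte markers in the table summed to 10087 TPM in 0‰ replicate 1 and to between 19151 and 25974 TPM in the other 5 libraries, with fabp1b.1, a fatty acid binding protein, between 690.66 and 2586.07 TPM and the peptide carrier slc15a1b between 446.31 and 1444.04. The intestinal transcription factor gene cdx4 was at 0.93 to 4.42 TPM at 0‰ and 18‰ and was listed at 0 in both 35‰ libraries. All 4 exocrine pancreas markers in the table were lower in both 35‰ libraries than in any other. Their summed TPM was 5340 to 11114 at 0‰, 2824 to 6052 at 18‰ and 10.3 to 94.0 at 35‰. The 7 liver markers summed to 551 TPM in 0‰ replicate 2 and to between 5.98 and 29.7 TPM in the other libraries. The 3 goblet cell markers summed to 197 and 279 TPM at 35‰ and to between 334 and 701 TPM in the other libraries. Most of the goblet sum was agr2. Both agr2 and SPDEF were lower in both 35‰ libraries than in all others, SPDEF only barely (11.23 against 11.71 TPM). In contrast, galnt7 overlapped, at 36.36 and 37.1 TPM at 35‰ and 34.64 to 42.22 in the other libraries. ISYNA1 was thus high in the libraries with the lowest sums of pancreatic and goblet cell markers. Whether the tissue sampled had a part in its level was not tested, and in whole intestine a change in the cells present and a change within cells cannot be told apart.

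Skeletal muscle and kidney markers were higher in some of the 35‰ libraries. The 5 skeletal muscle markers in the table summed to 39.0 TPM in 35‰ replicate 1 and 5.24 in 35‰ replicate 2, against 1.28 and 3.98 at 0‰ and 0.27 and 0.35 at 18‰. Nearly all of the sum at 35‰ came from mylpfa, a fast muscle myosin light chain, while tnni2b.1 was listed at 0 in every library. At 35‰ both the muscle sum and ISYNA1 were higher in replicate 1 than in replicate 2, ISYNA1 by 1.46 times. The kidney list held 6 genes, but cdh17 was at 912.03 TPM or more in every library, and in mammals it is a cadherin of the intestinal lining. The other 5 summed to 10.6 TPM in 35‰ replicate 2, 6.89 in 0‰ replicate 2 and at most 0.2 elsewhere. In 35‰ replicate 1 all 5 of these kidney genes were listed at 0. Of them, pax2a, pax8 and cdh16 did not exceed 0.99 TPM in any library. The part of muscle or kidney RNA in the level of ISYNA1 was not tested. For slc6a6b, the higher of its 35‰ libraries was the one with kidney markers. Its highest value, 284.17 TPM, was in 18‰ replicate 2, where the sum of these kidney genes was 0.2. At 0‰ it was 118.2 in replicate 2 (kidney sum 6.89) and 112.81 in replicate 1 (kidney sum 0.07). The part of kidney RNA in the level of slc6a6b was not tested.

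**Figure D3:**
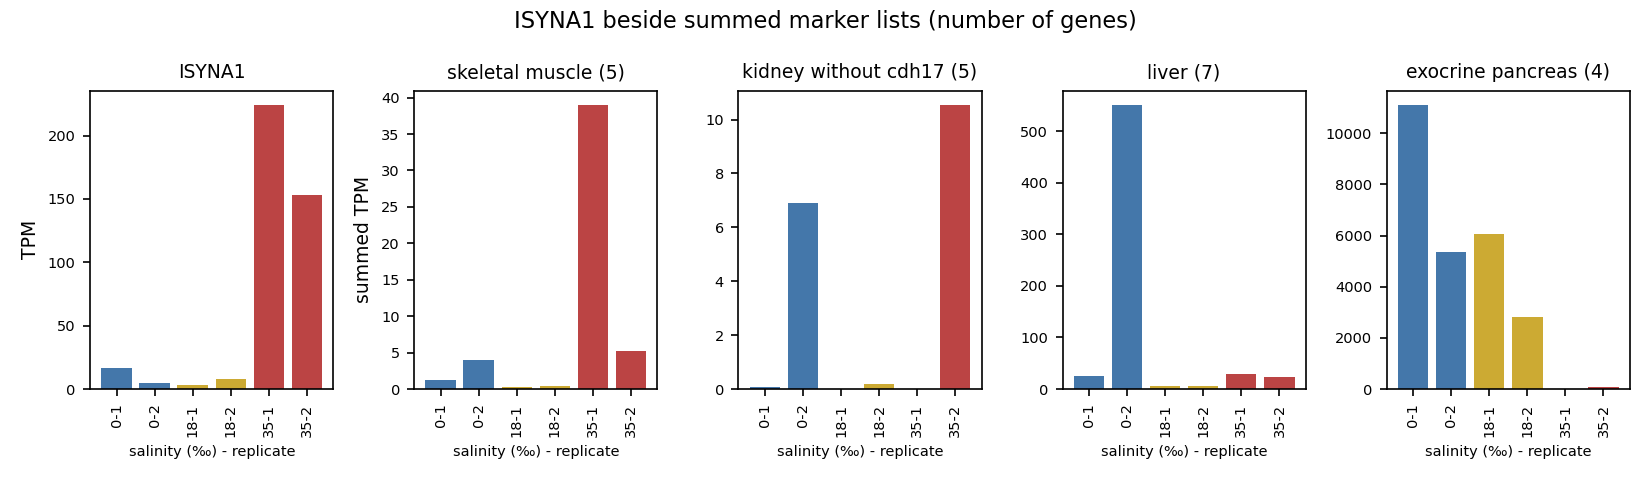
TPM of ISYNA1 and summed TPM of 4 marker lists in each library, with the salinity in ‰ and the replicate number below each bar and a separate scale from 0 in each panel. ISYNA1 was high in both 35‰ libraries, the muscle sum mainly in 35‰ replicate 1 (39.0), the kidney sum in 35‰ replicate 2 (10.6) and 0‰ replicate 2 (6.89), and the pancreas sum at 0‰ and 18‰.

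The genes whose pattern over the 6 libraries was most like that of ISYNA1 were sought by the root mean square difference of their centred log2(TPM + 1) values. The nearest of 7896 genes was csrp1b, a LIM domain protein of the cytoskeleton, with a difference of 1.03 log2 units. Its TPM was 31.34 and 4.84 at 0‰, 9.57 and 7.59 at 18‰ and, in the 35‰ libraries, 74.64 and 63.31, so that it shared with ISYNA1 the higher value in 0‰ replicate 1. Next came mylz3 (1.27), si:ch211-117m20.4 (1.29), camk1da (1.30) and mylpfa (1.32). The mylz3 and mylpfa genes encode muscle myosin light chains and camk1da a calcium-dependent kinase. Each of the 5 was higher in both 35‰ libraries than in all others, which the choice by likeness favours. On the log2(TPM + 1) scale their changes were smaller than those of ISYNA1, at 1.35 to 2.49 in 35‰ versus 0‰ and 2.40 to 3.80 in 35‰ versus 18‰. This scale understates the change of low genes. The mean TPM at 18‰ was 0.045 for mylz3, 0.085 for mylpfa and 0.16 for si:ch211-117m20.4, against 12.665, 21.165 and 5.44 at 35‰. Of the 5 genes, csrp1b and camk1da were the only ones with a TPM above 0.1 in every library.

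The substrate of the synthase is glucose 6-phosphate, and 12 tested genes make, use or supply it. None passed the test in any comparison, where 0.0127% to 0.317% of all genes did. With shares this low, the absence of a call in this list or those below is not a result about their genes. The glucokinase gene gck, which phosphorylates glucose, had a TPM of 27.11 and 101.66 at 0‰, 42.04 and 61.07 at 18‰ and, in the 35‰ libraries, 18.01 and 5.86. Both 35‰ values were below all others, as for 14.2% of the genes tested, with a log2 fold change of −2.23 in 35‰ versus 0‰ (SE 0.68, adjusted p = 0.311 from limma). The highest gck value was in 0‰ replicate 2, which also had the highest liver marker sum (551 TPM). The pancreas marker sums were lowest at 35‰ as well (10.3 and 94.0 TPM). The part of liver or pancreas RNA in the level of gck was not tested. The glucose-6-phosphatase gene g6pca.2, which releases free glucose, ran from 40.66 and 148.87 at 0‰ to 141.98 and 311.9 at 18‰ and 350.77 and 158.24 at 35‰. The fructose carrier slc2a5 had 7.33 and 29 TPM at 0‰ and 42.95 to 80.34 TPM in the 4 salt libraries, with a log2 fold change of 2.03 in 18‰ versus 0‰ (SE 0.57, adjusted p = 0.613 from limma). Both g6pca.2 and slc2a5 were lowest in 0‰ replicate 1, the library with the lowest enterocyte marker sum, and the part of this in their differences was not tested. In 35‰ versus 0‰, 6 of the 12 genes were higher and 3 lower without overlap of libraries, where 18.9% and 20% of all genes were. Among the 6 was g6pca.2, whose libraries overlapped once TPM was rescaled to the same total over the table.

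No gene of the lists for inositol phosphate recycling and phosphatidylinositol synthesis passed the test in any comparison. Of 18 tested genes for the turnover of inositol phosphates, no gene was higher at 35‰ in both libraries than at 0‰, where 18.9% of all genes were. In the other direction 4 were lower, a share near the 20% of all genes that were lower. Their median log2 fold change in 35‰ versus 0‰ was −0.10, with a range from −1.04 to 0.22. At its lower end was itpka, a kinase of inositol trisphosphate, which had a TPM of 11.74 and 7.01 at 0‰, 7.3 and 9.81 at 18‰ and, in the 35‰ libraries, 3.22 and 4.75 (adjusted p = 0.312 from limma in 35‰ versus 0‰). The impad1 gene, whose product belongs to the family of the inositol monophosphatases and acts on adenosine bisphosphate in the Golgi, had 12.44 and 19.07 TPM at 0‰, 14.12 and 15.03 at 18‰ and, in the 35‰ libraries, 12.02 and 7.51. The inositol phosphatase of blood cells inpp5d was at 25 and 9.14 TPM at 0‰ and at 6.16 and 9.48 at 35‰. The leukocyte markers summed to 648 TPM in 0‰ replicate 1, where inpp5d was highest, and to 225 to 328 in the other libraries. The part of leukocyte RNA in the level of inpp5d was not tested. In 18‰ versus 0‰ the largest value of this list was 0.58 for itpkb, another inositol trisphosphate kinase.

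For phosphatidylinositol synthesis and phosphorylation 16 genes were tested, among them cdipt, whose product joins myo-inositol to lipid. The TPM of cdipt was 56.88 and 64.24 at 0‰, 73.74 and 89.43 at 18‰ and, in the 35‰ libraries, 96.93 and 81.88, so that both salt groups were above 0‰. It was the only gene of this list higher without overlap in 35‰ versus 0‰, where 18.9% of all genes were. Its log2 fold change was 0.55 (SE 0.23, adjusted p = 0.427 from limma). The kinase gene pip5k1ba was highest at 18‰, with 9.73 and 6.79 TPM, against 5.36 and 4.53 at 0‰ and 3.01 and 2.58 at 35‰. On the log2 scale this was a difference of 0.62 between 18‰ and 0‰ and of −1.27 in 35‰ versus 18‰ (SE 0.26, adjusted p = 0.161 from limma). PITPNM2 (ENSPREG00000021286), which transfers phosphatidylinositol between membranes, was likewise higher in the 18‰ libraries (17.32 and 17.71) than at 0‰ (10.82 and 10.75). The PITPNB gene (ENSPREG00000007927), of another phosphatidylinositol transfer protein, overlapped in all comparisons and had a log2 fold change of −0.55 in 35‰ versus 0‰. A further gene of that name, ENSPREG00000016510, was lower at 35‰ (26.85 and 20.75 TPM) than at 18‰ (34.05 and 39.98) and overlapped in both comparisons with 0‰.

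A list for other osmolytes held 16 tested genes and mixed their synthesis with their breakdown, as for sord, gpcpd1 and prodha. The counts therefore do not describe synthesis alone. Of the 16 genes, 6 were higher and 4 lower in 35‰ versus 0‰ without overlap, where 18.9% and 20% of all genes were. None of the 16 passed the test. Their median log2 fold change was 0.19. In 35‰ versus 18‰, 3 were higher and 5 lower, where 18.7% and 29% of all genes were. The sorbitol dehydrogenase gene sord, which turns sorbitol into fructose, was at 27.53 and 45.56 TPM at 0‰, 124.33 and 118.21 at 18‰ and, in the 35‰ libraries, 246.29 and 114.93. All salt libraries were well above both 0‰ libraries. For sord the log2 fold change reached 1.75 in 18‰ versus 0‰ (SE 0.40, adjusted p = 0.52) and 2.22 in 35‰ versus 0‰ (SE 0.40, adjusted p = 0.126), both from limma. Like cdo1 and csad, sord was lowest in 0‰ replicate 1, where the enterocyte markers were also lowest (10087 TPM), and the part of this in their differences was not tested.

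Aldose reductase, which makes sorbitol from glucose, was represented by a pair of genes that differed from each other. The akr1b1.1 gene was higher in all salt libraries (178.38 to 281.04 TPM) than at 0‰ (130.29 and 143.89), with a log2 fold change of 0.71 in 35‰ versus 0‰ (SE 0.27, adjusted p = 0.394 from limma). The akr1b1.2 gene had 45.01 and 16.37 TPM at 0‰ and 18.25 to 24.5 in the salt libraries. How reads of such similar genes were divided is not stated, so the split between them is uncertain.

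Of the tested genes for taurine synthesis, 3 had their highest values at 35‰. GADL1, of the same list, was below the filter and had its highest value in 18‰ replicate 2 (0.52 TPM). The cysteine dioxygenase gene cdo1, which starts the pathway, had a TPM of 272.54 and 459.94 at 0‰, 414.5 and 455.51 at 18‰ and, in the 35‰ libraries, 829.51 and 558.85. The gene csad, for the decarboxylase that follows it, had 23.53 and 35.04 TPM at 0‰, 42.8 and 34.52 at 18‰ and, in the 35‰ libraries, 49.51 and 76.44. The gene adob, for a cysteamine dioxygenase that feeds the same product, had 19.35 and 20.17 at 0‰, 12.44 and 10.9 at 18‰ and, in the 35‰ libraries, 25.65 and 28.91. All 3 were higher in both 35‰ libraries than in all other libraries, while slc6a6b was not. In 35‰ versus 0‰ their log2 fold changes were 0.94 for cdo1, 1.07 for csad and 0.44 for adob, with adjusted p-values of 0.353, 0.282 and 0.482 from limma. These 3 genes were set together after their values had been seen, as the only genes of the list with both 35‰ values above all others (3 of 16, against 10.6% of all genes), and their directions held under both other scalings of the libraries. The same list held 4 genes with both 35‰ values below all others (4 of 16, against 14.2% of all genes), also named after their values were seen. They were gamt, for the last step of creatine synthesis, gpcpd1, which breaks down glycerophosphocholine, the arginase gene arg2 and the proline dehydrogenase gene prodha. Their log2 fold changes in 35‰ versus 0‰ were −0.76, −0.80, −0.36 and −0.81 in that order, and none passed the test.

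**Figure D4:**
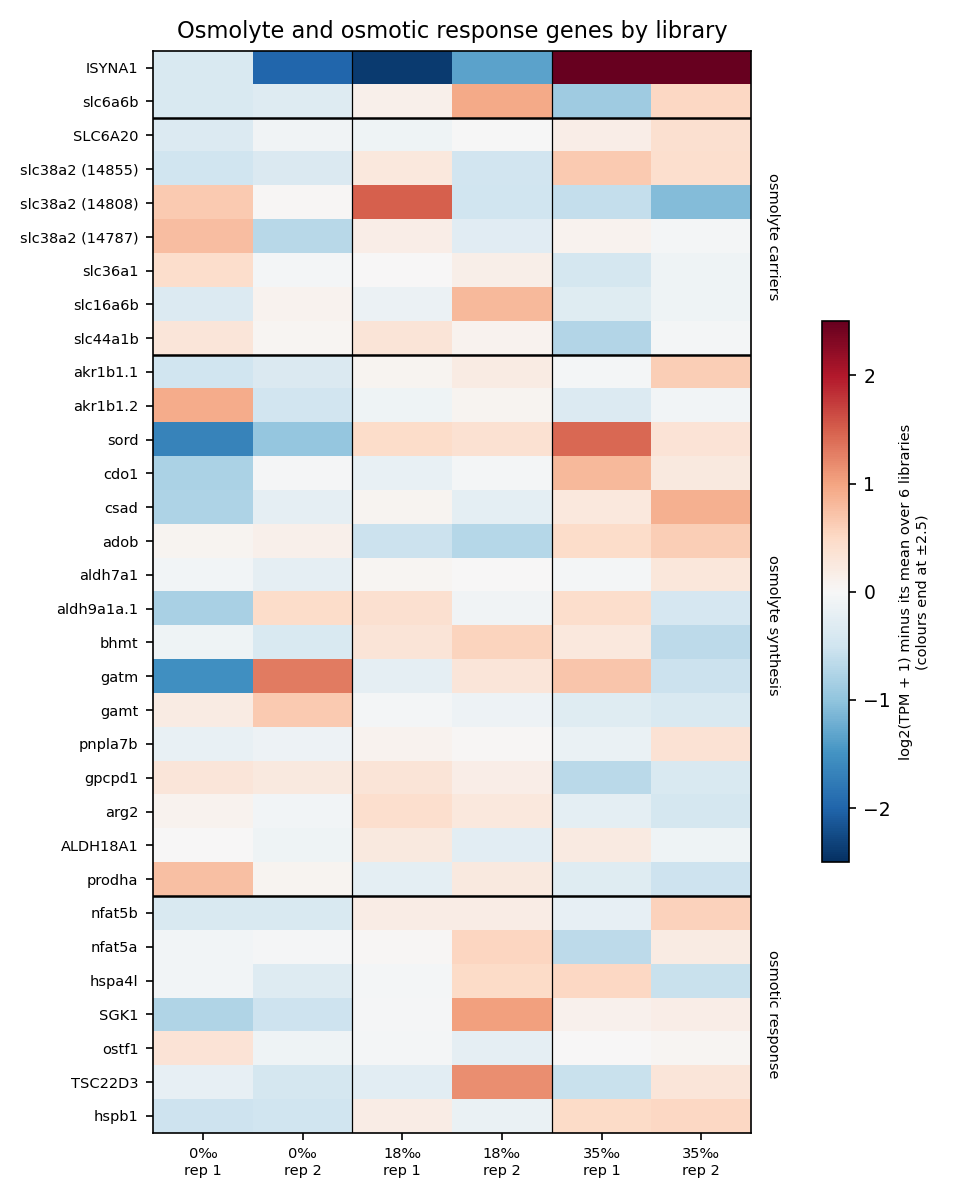
Log2(TPM + 1) of ISYNA1, slc6a6b and the tested genes of 3 lists (rows) in the 6 libraries (columns), each minus its mean over the libraries, with red above and blue below the mean. ISYNA1 has the strongest contrast of 35‰ with the other salinities, sord is below its mean in both 0‰ libraries (27.53 and 45.56 TPM), and cdo1, csad and adob are above their means at 35‰.

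Of the other carriers of osmolytes, 7 were tested and none passed. In 35‰ versus 0‰, 2 were higher and 3 lower without overlap, where 18.9% and 20% of all genes were. SLC6A20 was higher at 35‰ (44.4 and 52.46 TPM) than in all other libraries (30.93 to 39.21). In contrast, slc36a1 was lower at 35‰ (15.35 and 19.57 TPM) than in all others (20.2 to 28.93). The betaine carrier slc6a12 and the inositol carrier slc5a11 were not analysed here, and the proton-coupled inositol carrier SLC2A13 was below the filter, at 0.18 to 0.85 TPM. Of 3 genes named slc38a2, a carrier of neutral amino acids, ENSPREG00000014855 was higher at 35‰ (12.26 and 10.33 TPM) than in all other libraries (5.01 to 9.14), with a log2 fold change of 0.96 in 35‰ versus 0‰ (SE 0.30, adjusted p = 0.312 from limma). ENSPREG00000014808 was lower, at 2.9 and 1.8 TPM against 3.16 to 15.67 in the other libraries (log2 fold change −1.18). The third, ENSPREG00000014787, overlapped in all comparisons, with 10.57 to 30.82 TPM and a log2 fold change of −0.03 in 35‰ versus 0‰. The monocarboxylate carrier slc16a6b overlapped in all comparisons, with 19.54 to 44.44 TPM. For the choline carrier slc44a1b the TPM was 0.87 to 1.26 at 0‰ and 18‰ and 0.08 and 0.74 at 35‰. Of the volume-regulated anion channel, through which swollen cells lose taurine, lrrc8c and lrrc8da were tested, and their log2 fold changes in 35‰ versus 0‰ were −0.33 and −0.65 with overlapping libraries.

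In the osmotic response list, 5 of 7 genes were higher in 18‰ versus 0‰ without overlap (24.7% of all genes were) and 3 in 35‰ versus 0‰ (18.9% of all genes were). No gene of the list was lower without overlap in either comparison, where 12.8% and 20% of all genes were. None of the 7 passed the test in any of the 3 comparisons. NFAT5 is the transcription factor that in mammals turns on osmolyte genes under hypertonic stress. The nfat5b gene had a TPM of 2.66 and 2.67 at 0‰, 4.43 in both 18‰ libraries and, in the 35‰ libraries, 3.12 and 6.06, with a log2 fold change of 0.56 in 35‰ versus 0‰ (SE 0.31, adjusted p = 0.525 from limma). The nfat5a gene was at 2.47 and 2.58 at 0‰, 2.7 and 4.27 at 18‰ and, in the 35‰ libraries, 1.33 and 3.18. The small heat shock gene hspb1 was the one gene of the list above all other libraries at 35‰, as 10.6% of all genes were. Its TPM was 13.72 and 14.17 at 35‰ against 6.47 to 11.1 in the other libraries. The log2 fold change of hspb1 in 35‰ versus 0‰ was 0.99 (SE 0.23, adjusted p = 0.205 from limma). The kinase gene SGK1 and TSC22D3, both induced by glucocorticoids in mammals, had their highest value in 18‰ replicate 2, with 197.9 and 151.31 TPM. The same library held the highest value of slc6a6b, and a link between these values was not tested.

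Over all 7 lists, 78 of 100 genes in the table were tested and limma called 0 of them in each of the 3 comparisons. Of all genes tested, limma called 0.0127% in 18‰ versus 0‰, 0.19% in 35‰ versus 0‰ and 0.317% in 35‰ versus 18‰. With shares this low, 0 calls among 78 genes do not set the lists apart from other genes. An unadjusted p under 0.05 was given to 5 of the 78 (6.41%) in 18‰ versus 0‰, 16 (20.5%) in 35‰ versus 0‰ and 10 (12.8%) in 35‰ versus 18‰. Over all genes tested the shares were 5.93%, 11.3% and 12.5%. The smallest adjusted p was 0.52 and 0.126, for sord, in the comparisons with 0‰, and 0.119, for adob, in 35‰ versus 18‰.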

How the data were processed

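Paired-end reads of intestinal RNA were aligned by the authors to the P. reticulata genome (STAR), and transcript abundance was estimated in StringTie. The deposited table holds TPM values, with a column for each of 6 libraries. The genome build and annotation are not given in the sources used here, so no positions are printed. The TPM of the 10389 listed genes summed to 419412 to 481864 per library, less than a whole library. Read depth cannot be recovered from TPM, so counting error is unknown. Per library, 1006 to 1275 genes were listed at 0, which need not mean absence.

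The 7897 genes that reached 1 TPM in 2 libraries or more were tested with limma 3.58.1 in R 4.3.3 on log2(TPM + 1), a scale that understates the change of low genes. One fit over 6 libraries with a mean-variance trend gave the 3 comparisons, with calls at an adjusted p (Benjamini-Hochberg) under 0.05 and a fold change above 1.5. The authors used these cutoffs with DESeq2, which needs counts and was not run. With 2 libraries a group, the smallest exact permutation p is 0.333. The code of the fit was run on values simulated with an independent normal spread for each gene. Such a run does not check whether these libraries meet that model. Summaries used Python 3.11.15 with pandas 2.3.3.

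The genes and lists were chosen with earlier results of these data known. Named are ISYNA1 and slc6a6b, the 5 nearest profiles, akr1b1, slc6a12, slc5a11 and nfat5, and per pathway list up to 3 tested genes with the largest change in 35‰ versus 0‰, up to 2 in 18‰ versus 0‰, and all called genes. Beyond this rule, SLC2A13, SLC6A20, slc36a1, GADL1, gamt, gpcpd1, arg2, prodha, ENSPREG00000014787, ENSPREG00000016510 and single marker genes were named after their values were seen. The 9 marker lists also covered smooth muscle (188 to 344 summed TPM) and germ cells (0.26 to 2.61). A motif search in promoters was planned and not run, since no sequence was used here. Alternatives covered the pseudocount, filter, trend, scaling, replicate block, fold cutoff, libraries in the fit and each library left out.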

Additional observations from a re-analysis of the deposited data

How the results depend on the processing

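The signs of the ISYNA1 and slc6a6b values, and the absence of a call for slc6a6b, held under 9 other settings (pseudocounts of 0.1 and 5, no filter, a mean TPM of at least 5, no trend, 2 scalings, a replicate block, 2 salinities fitted alone), except that slc6a6b in 35‰ versus 0‰ was −0.0285 with TPM rescaled to the table's total. Over these settings the log2 fold change of ISYNA1 ran from 3.72 to 4.37 in 35‰ versus 0‰, 4.19 to 5.13 in 35‰ versus 18‰ and −0.82 to −0.47 in 18‰ versus 0‰, and limma's adjusted p of slc6a6b in 18‰ versus 0‰ from 0.579 to 0.998. With each library left out in turn, ISYNA1 ran from 3.41 to 5.02, from 4.37 to 5.42 and from −1.49 to 0.13 in the same order, the last reversed without 0‰ replicate 1. The slc6a6b values ran from 0.48 to 1.29 in 18‰ versus 0‰, −0.54 to 0.86 in 35‰ versus 0‰ (reversed without 35‰ replicate 2) and −1.43 to −0.03 in 35‰ versus 18‰. Overlap of libraries also depended on scaling for some named genes. With TPM rescaled to the table's total, g6pca.2 overlapped in 35‰ versus 0‰, while inpp5d, PITPNB (ENSPREG00000007927) and lrrc8da became lower without overlap. In 35‰ versus 18‰, akr1b1.2, slc16a6b and slc2a5 became lower without overlap.

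Over all genes, limma called 1 gene in 18‰ versus 0‰, 15 in 35‰ versus 0‰ and 25 in 35‰ versus 18‰. Leaving out each library moved these counts between 0 and 11 (the latter without 0‰ replicate 1), 3 (without 35‰ replicate 1) and 89 (without 0‰ replicate 2), and 3 (without 35‰ replicate 1) and 45 (without 35‰ replicate 2). In 18‰ versus 0‰ the count was 0 with a pseudocount of 5 (486 genes with an unadjusted p under 0.05), a mean TPM of at least 5 (311), median-ratio scaling (484), the replicate block (507) and the 4 libraries alone (587). Without a filter it was 1 in 35‰ versus 0‰ and 4 in 35‰ versus 18‰. With a mean TPM of at least 5 it was 24 in 35‰ versus 0‰, and with the 4 libraries alone 41 in 35‰ versus 18‰. The cause of these shifts was not tested. No broad shift shared by same-numbered libraries was seen. Their deviations from the group means correlated across genes at 0.06, −0.04 and 0.05, which does not settle whether the libraries were paired. At each salinity slc6a6b was higher in replicate 2 than in replicate 1. With the replicate block, slc6a6b in 18‰ versus 0‰ had an unadjusted p of 0.041 and an adjusted p of 0.749 in limma. Without the block the unadjusted p was 0.104.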
